A study of Mus musculus with 9 samples.

Results

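The tumour necrosis factor (TNF) superfamily comprises TNF and related ligands, and the TNF receptor superfamily comprises their receptors. The genes described here are Tnf and every gene in the deposited table whose symbol begins with Tnfsf or Tnfrsf, leaving out Tnfrsf13b and Tnfrsf13c. That rule gave 31 of 25526 names, of which 13 were ligands and 18 were receptors. The rule itself used no measured value, but members and gene lists were chosen with earlier results of these data known. All 31 matched a gene of GENCODE vM21 on the mouse build GRCm38. RNA was sequenced from whole lungs in 3 groups of 3 mice: normal, pulmonary fibrosis model, and PepNzymeSOD-CAT, a self-assembled polypeptide nanozyme whose name refers to superoxide dismutase and catalase activity. The agent that induced fibrosis, the nanozyme dose, the time of sampling, and the strain, sex and age of the mice are not given in the sources used here. The nanozyme group is labelled by the nanozyme alone, so whether its mice also carried the fibrosis model is taken from the study's stated purpose and not from a sample label. Each library came from the lung of 1 mouse.

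Most TNF superfamily ligands are made as membrane proteins that can be cut free, and they act as trimers that cluster their receptors. Receptors with an intracellular death domain can recruit caspase-activating complexes, those without one bind TRAF adaptors that switch on NF-kappaB and MAP kinase signalling, and decoy receptors bind ligand without passing on a full signal. In the lung, TNF is known as an early cytokine of macrophages after injury, and several other members carry signals between leukocytes.

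Values are FPKM (fragments per kilobase of transcript, scaled to the mapped fragments of the library), which allow levels to be compared between genes. Changes are differences of group means of log2(FPKM + 1), a scale that understates changes of low genes, with standard errors (SE) and adjusted p-values from limma over 14540 tested genes. A gene was called at an adjusted p below 0.05. FPKM sums ran from 443746 to 519772 per library, and read depth is unknown. The epithelial lung markers Sftpc, Ager and Scgb1a1 were present in all 9 libraries. The nanozyme libraries did not form 1 cluster. On the first principal component of all tested genes (62.8% of variance), normal libraries lay from -63.5 to -54.8 and model libraries from 39.5 to 61.2, with nanozyme replicates 1, 2 and 3 at -14.4, 43.3 and -9.68. Counts of called genes in the nanozyme comparisons are therefore given with and without replicate 2. Medians, counts at an unadjusted p and counts of ranges that did not overlap use all libraries. Nanozyme libraries are also numbered in a range of their own, so any batch that followed this numbering cannot be told apart from the treatment.

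The comparison of fibrosis model with normal lung asks which superfamily genes differed in the diseased tissue. Of 25 tested members, 15 rose and 2 fell, that is 60.0% and 8.0%. Over all tested genes 17.4% were called higher and 22.7% lower, that is 2525 and 3299 genes. This balance over all genes depended on the scaling, with 2662 higher and 2253 lower at equal column sums, 3046 and 2640 with median-of-ratios scaling, and 2111 and 4307 when scaled without the 100 most abundant genes. Members called were 16 higher and 2 lower, 16 and 2, and 13 and 2 in those fits. The median change of the tested members was 0.76 on the log2 scale, against -0.12 for all genes tested. The largest differences among the members were in Tnf, the TNF receptor Tnfrsf1b and the costimulatory receptor Tnfrsf9. The members that fell were the receptors Tnfrsf19 and Tnfrsf21. Ranges of the model and normal libraries did not overlap for 17 members that were higher and 3 that were lower in the model, where the shares over all genes were 23.5% and 34.9%. Testing required an FPKM of at least 1 in at least 3 libraries. Tnfsf14, Tnfrsf26 and Tnfrsf8 were below 1 in every normal library and entered only through the other groups. With no such filter, 16 of the 31 members were called higher and 2 lower, against 13% and 16.9% of the 21260 genes in that fit.

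**Figure D1:**
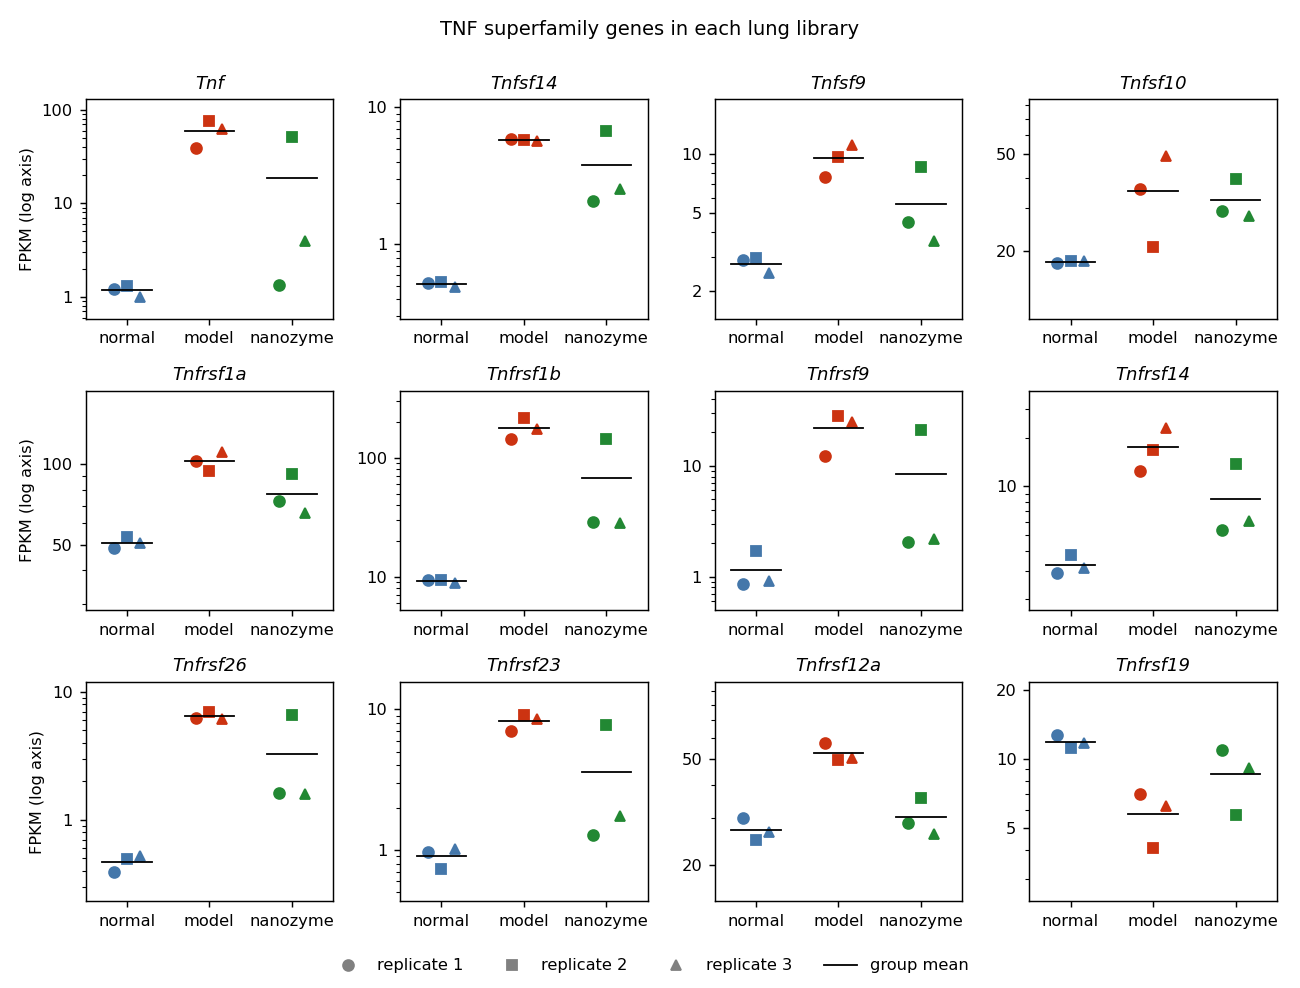
FPKM of 12 superfamily members on log axes, 1 panel per gene, in normal, fibrosis model and nanozyme lung. Each point is 1 library, its shape gives the replicate number, and bars are group means. For Tnf, the 3 model libraries span 39.5 to 76.0 and the normal ones 0.992 to 1.31, while nanozyme replicate 2 lies at 51.1 and the other nanozyme libraries at 1.32 and 3.99.

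Among the ligands, Tnf, the founding member of the family and the ligand of Tnfrsf1a and Tnfrsf1b, had the largest change. Its FPKM was 1.20, 1.31 and 0.992 in normal replicates 1 to 3, 39.5, 76.0 and 62.1 in the model, and 1.32, 51.1 and 3.99 in the nanozyme group. Every model library lay far above every normal library, and only replicate 2 of the nanozyme libraries lay within the model range. Tnf rose by 4.75 ± 0.95 (SE, n = 3 against 3) on the log2 scale (adjusted p = 0.00602). Tnf lies on chromosome 17 at 35199381 to 35202007 (GRCm38, minus strand).

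Tnfsf14, known as LIGHT, is the ligand of Tnfrsf14 and of the lymphotoxin beta receptor. Tnfsf14 had FPKM of 0.524, 0.532 and 0.490 in normal lung, 5.83, 5.76 and 5.63 in the model, and 2.09, 6.70 and 2.54 in the nanozyme group. The model libraries differed little from each other, and nanozyme replicate 2 lay above all of them. The rise was 2.15 ± 0.30 (adjusted p = 0.00151).

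Tnfsf9, the ligand of the costimulatory receptor Tnfrsf9, measured 2.87, 2.95 and 2.46 FPKM in normal lung, 7.62, 9.71 and 11.2 in the model and 4.51, 8.62 and 3.58 in the nanozyme group. All model libraries exceeded all normal libraries, and the change was 1.47 ± 0.26 (adjusted p = 0.00376). A non-coding gene on the opposite strand, Gm11110, overlaps Tnfsf9, and the strand setting of the counting is not given in the sources used here.

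Tnfsf10, or TRAIL, the ligand that engages apoptosis-inducing receptors, measured 17.98 to 18.3 FPKM in normal lung, 36.1, 20.9 and 49.4 in the model and 28.0 to 39.8 in the nanozyme group. Model replicate 2 lay close to the normal libraries. The call on its rise of 0.85 ± 0.27 (adjusted p = 0.0383) ended without the filter on low values (adjusted p = 0.0550), when scaled without the 100 most abundant genes (0.0722), with only the 2 groups compared in the fit (0.0505) and without single libraries (normal 1, 2 or 3, model 1 or 3, nanozyme 1 or 3), at adjusted p from 0.0504 to 0.0997.

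The other 4 tested ligands did not pass the test in the model. Tnfsf13b (BAFF), a survival factor for B cells, measured 3.35 to 5.59 FPKM in normal and 5.94 to 8.05 in model lung, a change of 0.66 (adjusted p = 0.0578). Tnfsf13 (APRIL), a survival factor for plasma cells, measured 1.53 to 2.01 and 2.07 to 3.65 (change 0.42, adjusted p = 0.0987). Tnfsf12 (TWEAK), the ligand of Tnfrsf12a, measured 13.3 to 15.7 and 11.0 to 17.6 FPKM (change -0.13, adjusted p = 0.651). Tnfsfm13, a read-through transcript joining Tnfsf12 and Tnfsf13, measured 22.9 to 27.1 and 23.0 to 27.2 (change -0.01, adjusted p = 0.957). These last genes, Tnfsf12, Tnfsf13 and Tnfsfm13, overlap on the same strand of chromosome 11, so how the counting divided reads between them is uncertain.

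Of the 4 tested receptors with a death domain, 1 rose and 1 fell, where 17.4% of all tested genes were called higher and 22.7% lower. With 4 genes, these counts do not set the role apart from those shares. Tnfrsf1a, the broadly expressed TNF receptor, measured 48.3, 53.5 and 50.7 FPKM in normal lung, 103, 94.2 and 111 in the model, and 73.0, 92.2 and 65.9 in the nanozyme group. All model libraries lay above all others, and all nanozyme libraries lay above all normal ones. Its change in the model was 0.996 ± 0.13 (adjusted p = 0.00138).

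Tnfrsf21, known as death receptor DR6, had FPKM of 17.1, 16.3 and 16.9 in normal lung, 10.9, 9.96 and 10.9 in the model and 10.2, 11.8 and 11.4 in the nanozyme group. Both the model and the nanozyme libraries lay below every normal library. It fell by 0.62 on the log2 scale (SE 0.09, adjusted p = 0.00198). The other receptors with a death domain did not pass: Tnfrsf10b, a receptor of TRAIL, changed by 0.18 (adjusted p = 0.323), and Tnfrsf25, the receptor of Tnfsf15, by -0.42 (adjusted p = 0.225).

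Of the 10 tested receptors without a death domain, 9 rose and 1 fell, where 17.4% of all tested genes were called higher and 22.7% lower. Tnfrsf1b, the TNF receptor found mainly on leukocytes and endothelium, had FPKM of 9.32, 9.47 and 8.93 in normal lung, 143, 214 and 175 in the model, and 28.6, 144 and 28.1 in the nanozyme group. No value of the model came near the normal range, and nanozyme replicate 2 lay at the lower end of the model libraries. The rise was 4.11 ± 0.55 (adjusted p = 0.00128). Tnfrsf1b lies on chromosome 4 at 145213463 to 145246870 (minus strand).

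The order of the TNF receptors also changed between groups. The FPKM ratio of Tnfrsf1b to Tnfrsf1a was 0.193, 0.177 and 0.176 in the normal libraries, 1.39, 2.28 and 1.58 in the model, and 0.392, 1.56 and 0.426 in the nanozyme group. Tnfrsf1a was thus the most abundant of the 31 genes in every normal library and in nanozyme replicates 1 and 3, and Tnfrsf1b in every model library and in nanozyme replicate 2. Both receptors together made up 28.4% to 29.8% of the members' summed FPKM in normal lung and 46.3% to 50.3% in the model. In the nanozyme libraries they made up 37.2%, 45.1% and 33.2%. No test was run on these ratios and shares.

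**Figure D2:**
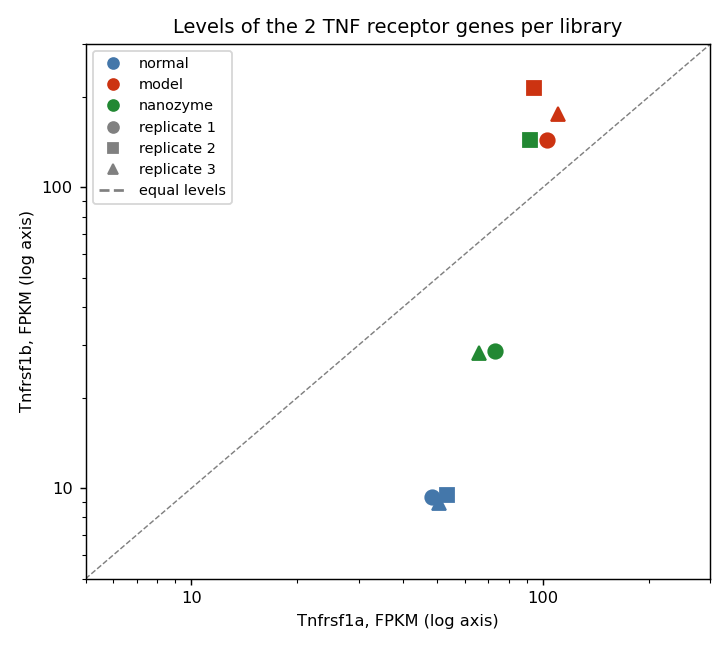
FPKM of Tnfrsf1b (vertical, log axis) against Tnfrsf1a (horizontal, log axis), with 1 point for each of the 9 libraries, colour for the group and a dashed line at equal levels. Tnfrsf1b lies below Tnfrsf1a in every normal library (8.93 to 9.47 against 48.3 to 53.5) and above it in every model library (143 to 214 against 94.2 to 111).

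Tnfrsf9, a costimulatory receptor of activated T cells, had FPKM of 0.851, 1.69 and 0.920 in normal lung, 12.2, 27.9 and 25.0 in the model, and 2.05, 21.0 and 2.18 in the nanozyme group. The groups of normal and model libraries did not overlap, and Tnfrsf9 rose by 3.34 ± 0.71 (adjusted p = 0.00745). Its locus on chromosome 4 (150914562 to 150946102, plus strand) overlaps Camta1, a protein-coding gene on the opposite strand. Both Tnfsf9 and Tnfrsf9 were thus among the members that rose.

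Tnfrsf14 (HVEM), the receptor of Tnfsf14, measured 2.92, 3.74 and 3.15 FPKM in normal lung, 12.4, 16.9 and 22.9 in the model and 5.35, 13.8 and 6.09 in the nanozyme group. Each model library exceeded each normal library, and the rise was 2.07 ± 0.33 (adjusted p = 0.00241). Of the pair, Tnfsf14 and Tnfrsf14 both passed.

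Tnfrsf26 is one of 3 closely related receptor genes that lie side by side on chromosome 7, with Tnfrsf26 at 143607659 to 143628722, Tnfrsf22 at 143634806 to 143649661 and Tnfrsf23 at 143665809 to 143685872. Tnfrsf26 had FPKM of 0.393, 0.494 and 0.522 in normal lung, 6.21, 6.97 and 6.15 in the model and 1.61, 6.54 and 1.60 in the nanozyme group, a rise of 2.34 ± 0.37 in the model (adjusted p = 0.00240). Its neighbours Tnfrsf22 and Tnfrsf23 are mouse decoy receptors of TRAIL. Tnfrsf23 had FPKM of 0.963, 0.733 and 1.02 in normal lung, 7.08, 9.19 and 8.61 in the model and 1.27, 7.75 and 1.74 in the nanozyme group, and rose by 2.28 ± 0.44 (adjusted p = 0.00500). Tnfrsf22, which lies between them, measured 1.42 to 1.76 FPKM in normal and 1.56 to 1.89 in model lung (change 0.07, adjusted p = 0.747). All 3 overlap the antisense gene E230032D23Rik and are similar in sequence, so the assignment of reads among them is uncertain.

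Tnfrsf8 (CD30), a receptor of activated lymphocytes, measured 0.435, 0.0496 and 0.117 FPKM in normal lung, 1.59, 2.36 and 1.58 in the model and 0.597, 1.93 and 0.343 in the nanozyme group. It rose by 1.25 ± 0.29 (adjusted p = 0.0108), from values close to 0 in normal lung. Tnfrsf12a (Fn14), the receptor of TWEAK, measured 30.1, 24.7 and 26.5 FPKM in normal lung, 57.3, 49.8 and 50.6 in the model and 28.8, 35.7 and 26.1 in the nanozyme group. Tnfrsf12a rose by 0.93 ± 0.14 (adjusted p = 0.00178), while its ligand Tnfsf12 did not pass the test.

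Tnfrsf11a (RANK), known for its part in osteoclast formation, rose by 0.76 ± 0.16 (1.49 to 1.66 FPKM in normal and 2.69 to 3.80 in model lung, adjusted p = 0.00814). The T cell costimulatory receptor Tnfrsf4 (OX40) rose by 0.68 ± 0.18 (adjusted p = 0.0203), from 1.21 to 1.31 FPKM in normal to 1.78 to 3.20 in model lung. Without any 1 of the normal replicates, or without model replicate 2 or 3, its adjusted p was 0.0569 to 0.0656. Tnfrsf18 (GITR), a receptor of regulatory and activated T cells, rose by 0.48 ± 0.15 (3.17 to 4.06 against 4.48 to 6.48 FPKM, adjusted p = 0.0323). That call ended without normal replicate 2 or 3 or model replicate 2 or 3, at adjusted p from 0.0594 to 0.112, and when scaled without the 100 most abundant genes (adjusted p = 0.0540). The antisense gene Gm16008 overlaps Tnfrsf18.

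Tnfrsf19 (TROY) was the receptor without a death domain that fell. Tnfrsf19 had FPKM of 12.7, 11.1 and 11.7 in normal lung, 7.02, 4.07 and 6.23 in the model and 10.9, 5.68 and 9.14 in the nanozyme group. It fell by 0.95 on the log2 scale (SE 0.24, adjusted p = 0.0143), and the adjusted p was 0.0503 without normal replicate 1. The non-coding gene Gm41168 overlaps it on the opposite strand. Tnfrsf11b, or osteoprotegerin, a soluble decoy for Tnfsf11, did not pass, with 1.53 to 1.83 FPKM in normal and 1.71 to 2.41 in model lung (change 0.24, adjusted p = 0.319). The 3 decoy receptors as a role therefore held 1 member that rose, Tnfrsf23, where 17.4% of all tested genes were called higher. With 3 genes, this count does not set the role apart from that share.

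The 5 ligands and 1 receptor under the filter were not tested and stood at low values. Tnfsf11 (RANKL) ranged from 0.081 to 0.125 FPKM in normal, 0.509 to 0.939 in model and 0.221 to 0.347 in nanozyme libraries. Tnfsf8, the ligand of Tnfrsf8, ranged from 0.138 to 0.436, 0.884 to 1.28 and 0.485 to 0.737 in the same order, and Tnfsf15 from 0.437 to 0.537, 0.545 to 1.08 and 0.907 to 1.06. For both Tnfsf11 and Tnfsf8 the model libraries lay above all others. Tnfsf4, the ligand of Tnfrsf4, did not exceed 0.434 FPKM, and Tnfsf18, the ligand of Tnfrsf18, did not exceed 0.192. Tnfrsf17 (BCMA), a receptor of plasma cells for Tnfsf13 and Tnfsf13b, measured 0.178, 0.148 and 0.267 FPKM in normal lung, was listed at 0 in all 3 model libraries, and measured 1.35, 0 and 1.11 in the nanozyme group. The plasma cell markers Jchain (143, 3.70 and 31.2 FPKM) and Mzb1 (43.2, 5.09 and 23.1) were likewise higher in nanozyme replicates 1 and 3 than in replicate 2. Sdc1, the other plasma cell marker listed, differed little among them (86.6, 83.8 and 88.5). The part of plasma cells in the Tnfrsf17 values was not tested.

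**Figure D3:**
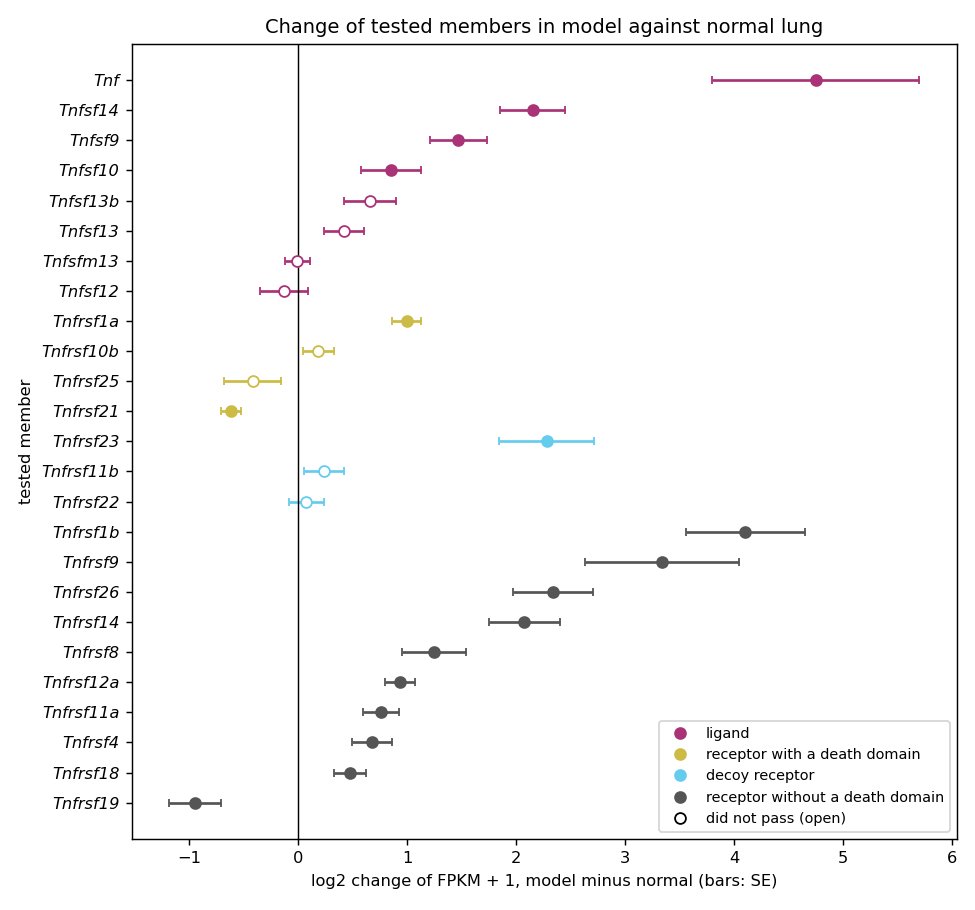
Log2 change in FPKM + 1 between fibrosis model and normal lung for the 25 tested members, grouped and coloured by role, with bars for the standard error from limma and open points for members that did not pass. The changes run from 4.75 for Tnf to -0.95 for Tnfrsf19, and 15 members were called higher and 2 lower.

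Promoter sequences are shown for members that rose by at least 2 on the log2 scale in the model. That these members rose together follows from this rule, and shared control of them was not tested. The rule took in 7 members, and windows of 5 of them are printed. Only windows without an annotated exon are printed. The window of Tnfrsf14 holds exons and is not shown, and Tnfrsf26 had no window. The windows are the 250 bases before a RefSeq transcription start (GRCm38.p6), written 5′ to 3′ on the gene's strand in lower case, and capitals mark matches to the motifs searched. Tnf is at chr17:35202008-35202257 (minus strand), Tnfrsf1b at chr4:145246871-145247120 (minus), Tnfrsf9 at chr4:150919905-150920154 (plus), Tnfrsf23 at chr7:143685876-143686125 (minus) and Tnfsf14 at chr17:57194182-57194431 (minus). The last line gives 30 bases around a match in the window of another Tnfrsf9 start, at chr4:150927947-150927976 (plus). That window holds an annotated exon, so these bases fall outside the printing rule and were picked for the match. An AP-1 match in the same window lies outside the 30 bases.
Tnf: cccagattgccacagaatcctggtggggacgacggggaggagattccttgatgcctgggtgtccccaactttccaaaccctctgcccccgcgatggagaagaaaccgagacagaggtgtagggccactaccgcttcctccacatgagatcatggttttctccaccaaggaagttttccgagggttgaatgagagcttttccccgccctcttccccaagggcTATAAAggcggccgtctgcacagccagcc
Tnfrsf1b: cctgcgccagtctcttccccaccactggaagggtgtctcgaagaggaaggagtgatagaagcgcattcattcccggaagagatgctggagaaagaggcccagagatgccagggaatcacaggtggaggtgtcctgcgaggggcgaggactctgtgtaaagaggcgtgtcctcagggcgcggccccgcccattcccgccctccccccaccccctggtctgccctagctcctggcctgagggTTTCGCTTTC
Tnfrsf9: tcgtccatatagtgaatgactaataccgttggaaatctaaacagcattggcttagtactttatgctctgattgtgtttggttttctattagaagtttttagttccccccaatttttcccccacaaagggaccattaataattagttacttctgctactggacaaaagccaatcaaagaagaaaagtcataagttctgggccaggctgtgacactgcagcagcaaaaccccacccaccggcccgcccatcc
Tnfrsf23: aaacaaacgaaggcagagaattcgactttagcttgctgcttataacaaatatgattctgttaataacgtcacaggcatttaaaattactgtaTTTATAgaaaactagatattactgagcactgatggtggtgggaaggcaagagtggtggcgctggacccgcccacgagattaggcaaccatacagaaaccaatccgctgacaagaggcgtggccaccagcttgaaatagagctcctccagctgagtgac
Tnfsf14: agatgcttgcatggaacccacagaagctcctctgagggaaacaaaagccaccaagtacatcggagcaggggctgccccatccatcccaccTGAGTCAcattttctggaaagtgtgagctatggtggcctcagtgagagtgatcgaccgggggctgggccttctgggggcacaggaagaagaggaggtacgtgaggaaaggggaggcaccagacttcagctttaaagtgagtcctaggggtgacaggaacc
Tnfrsf9, other start: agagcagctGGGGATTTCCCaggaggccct
The capitals mark the letters TATAAA in Tnf, 29 to 24 bases before the start. In Tnfrsf23 they mark the same letters read on the other strand, 158 to 153 bases before the start. They also mark an interferon-stimulated response element core read on the other strand in Tnfrsf1b, and an AP-1 motif in Tnfsf14. The whole Tnfrsf9 window held no match to any of the 4 motifs, and the 30 bases at the other start hold the NF-kappaB consensus.

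RefSeq windows were found for 24 members, and 4 motifs were searched on both strands. The AP-1 motif TGANTCA was in the windows of 5 members, Tnfrsf8, Tnfrsf9, Tnfsf13, Tnfsf13b and Tnfsf14, and in 7.82% of all genes with windows. The interferon-stimulated response element core, a GAAA repeat, was in 4 members, Tnfrsf1b, Tnfrsf14, Tnfrsf17 and Tnfsf13b, and in 3.46% of all genes. The NF-kappaB consensus was in 3 members, Tnfrsf9, Tnfrsf8 and Tnfrsf25, and in 8.23% of all genes. The TATA box letters TATAAA, at any position in the window, were in 5 members, Tnf, Tnfrsf17, Tnfrsf23, Tnfsf11 and Tnfsf18, and in 14.3% of all genes. In that order the matches began 29, 114, 158, 32 and 34 bases before the start. As shares of the 24 members these are 20.8%, 16.7%, 12.5% and 20.8%. Members with and without a change held matches: Tnfrsf25 and Tnfsf13 have one and did not pass the test. A match describes letters in these windows and does not show that a factor binds there, and no match says only that these letters are not in this window.

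Genes that work with the superfamily were described as 4 lists. Their counts in the model stand against 17.4% of all tested genes called higher and 22.7% called lower. The list of superfamily genes with other symbols held 15 genes, among them the adaptor gene Edaradd, which was not tested. Of the 8 tested, 7 rose in the model while none fell, with a median change of 0.98 against -0.12 for all genes. Relt, a receptor of the family, rose by 2.19 ± 0.21 (adjusted p = 0.000378), and the lymphotoxin subunit Ltb by 1.15 ± 0.16 (adjusted p = 0.00157). The death ligand Fasl rose by 0.72 ± 0.14 (adjusted p = 0.00467) and its receptor Fas by 1.02 ± 0.26 (adjusted p = 0.0165). Among those that rose, Fasl and Lta were below 1 FPKM in every normal library and entered the test only through the other groups.

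Of 23 genes of receptor signalling and feedback, 12 rose and 1 fell in the model, with a median change of 0.43. Casp8, the caspase activated at death receptors, rose by 1.32 ± 0.17 (adjusted p = 0.00112). Tnip1 and Cyld, both inhibitors of NF-kappaB signalling, rose by 2.66 ± 0.37 (adjusted p = 0.00150) and 0.71 ± 0.12 (adjusted p = 0.00332). Birc3, a ubiquitin ligase of the receptor complex, rose by 1.83 ± 0.30 (adjusted p = 0.00267). The adaptor Tab1 fell by 0.34 (adjusted p = 0.0211).

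Of 12 genes of ligand release and message control, 6 rose and none fell (median 0.39). Adam17, the protease that sheds TNF from the cell surface, rose by 1.11 ± 0.22 (adjusted p = 0.00616), and Rhbdf2, which helps its maturation, by 1.12 ± 0.23 (adjusted p = 0.00667). The processing protease Furin rose by 1.42 ± 0.19 (adjusted p = 0.00140), and Zc3h12a, a ribonuclease that degrades inflammatory messages, by 3.18 ± 0.50 (adjusted p = 0.00245).

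Of 14 genes known to be induced by TNF, 13 rose in the model and none fell, with a median change of 2.10. Sele, 1 of the genes that rose, was below 1 FPKM in every normal library and entered the test only through the other groups. Ccl2, a monocyte-attracting chemokine, rose by 5.04 ± 0.65 (adjusted p = 0.00111), and the macrophage growth factor Csf1 by 1.86 ± 0.30 (adjusted p = 0.00267). The adhesion molecule Icam1 rose by 1.34 ± 0.22 (adjusted p = 0.00276) and the NF-kappaB subunit gene Nfkb2 by 2.07 ± 0.34 (adjusted p = 0.00297). Tnfaip6 changed by 0.30 (adjusted p = 0.518). Many other stimuli induce these genes too.

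Markers of leukocytes moved with the members that rose. Summed FPKM of the neutrophil markers was 35.5 to 45.0 in normal and 2412 to 3142 in model lung, with 7 of 7 tested markers called higher and Ly6g listed at 0 in the normal libraries. The neutrophil markers Mmp8, Cxcr2 and Ly6g were below 1 FPKM in every normal library and entered the test only through the other groups. The monocyte and macrophage markers summed to 113 to 118 and 796 to 1224, with 7 of 7 called higher. Natural killer cell markers summed to 35.0 to 46.6 and 97.9 to 118 (4 of 5 called higher), and T cell markers to 12.7 to 17.4 and 25.1 to 34.7 (2 of 5). No B cell, plasma cell or endothelial marker was called in this comparison. The endothelial markers nevertheless summed to 412.5 to 456 in normal and 168.7 to 354.8 in model lung. Each of the 5 was lower in every model library than in every normal one, as were 34.9% of all tested genes. Alveolar epithelial markers summed to 24170 to 30650 in normal and 8209 to 11950 in model lung (4 of 6 called lower), airway epithelial markers to 61100 to 73040 and 5417 to 14870 (2 of 4 lower), and fibroblast markers to 1430 to 1997 and 127 to 510 (2 of 4 lower). Most of each sum came from a single gene, in that order Sftpc, Scgb1a1 and Inmt. The fibroblast markers Pdgfra and Col13a1 had overlapping ranges in normal and model lung. The part of these cell types in the members' changes was not tested. In whole lung, a change in the number of cells of a type and a change in RNA per cell cannot be told apart.

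The comparison of nanozyme with model lung asks which of these genes differed after treatment. No member was called, as no gene of the 14540 was (0.0%) in limma's test over all 9 libraries. At an unadjusted p below 0.05 there were 11 of 25 members, against 22.1% of all genes. The change was -2.78 ± 0.95 for Tnf (95% interval -4.96 to -0.61, adjusted p = 0.182), -1.82 ± 0.55 for Tnfrsf1b (-3.07 to -0.57, adjusted p = 0.181) and -0.79 ± 0.14 for Tnfrsf12a (-1.10 to -0.48, adjusted p = 0.181). The tested members had a median change of -0.35, and all tested genes 0.09. All 3 nanozyme libraries lay below all 3 model libraries for Tnfrsf1a and Tnfrsf12a (5.83% of all genes did so). They lay above them for Tnfsfm13, at 28.9 to 34.7 against 23.0 to 27.2 FPKM (10.6% of all genes).

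Leaving out nanozyme replicate 2 changed the count. That library was singled out because it lay with the model libraries in these same data, so this fit is selected on the outcome, and its p-values describe the fit and are no independent support for a difference. With the other two nanozyme libraries, 13 of 25 members were called, 12 lower and 1 higher than in the model, and 9.64% of all genes were called lower and 12.5% higher. The log2 change was then -4.10 for Tnf (adjusted p = 0.000462), -2.79 for Tnfrsf9 (adjusted p = 0.00145) and -2.59 for Tnfrsf1b (adjusted p = 0.000252). It was -1.89 for Tnfrsf23 and -1.51 for its neighbour Tnfrsf26, and -1.03 for Tnfsf14 and -1.42 for its receptor Tnfrsf14. The other members called lower were Tnfsf9 (-1.05), Tnfrsf8 (-0.95), Tnfrsf12a (-0.91), Tnfrsf1a (-0.56) and Tnfrsf11a (-0.50, adjusted p = 0.0493). Tnfrsf19 rose by 0.72 (adjusted p = 0.0363). This comparison shares the model libraries with that of model and normal lung, so the changes in both are not independent of each other.

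**Figure D4:**
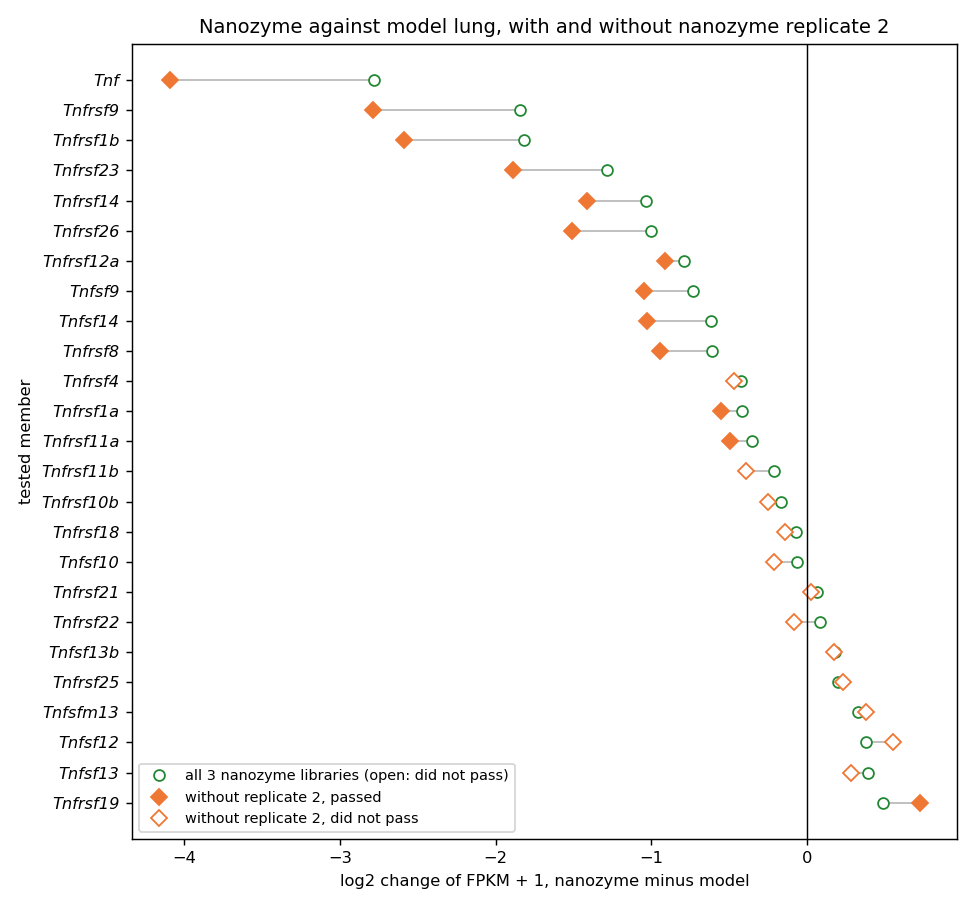
Log2 change in FPKM + 1 between nanozyme and model lung for the 25 tested members, with all 3 nanozyme libraries (circles) and without nanozyme replicate 2 (diamonds, filled where the member passed). With all libraries 0 members were called, and without replicate 2 there were 12 called lower and 1 higher, with Tnf at -2.78 and -4.10 in the respective fits.

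The single nanozyme libraries can be placed against the ranges of the other groups for the 17 members that were called in the model and did not overlap with normal lung. Replicate 2 lay within the model range for 13 of the 17, beyond it for Tnfsf14, and between the model and normal ranges for Tnfrsf1a, Tnfrsf12a and Tnfrsf21. Over all genes of that kind 58.1% lay within the model range in this library. Replicate 1 lay between both ranges for 12 of the 17, as did replicate 3, against 53.7% and 58.9% of all such genes. Tnfrsf12a lay within the normal range in replicates 1 and 3, as did Tnfrsf4 in replicate 1 and Tnfrsf8 in replicate 3. Tnfsf10 and Tnfrsf18 lay within the model range in both. The summed FPKM of all 31 members was 202 to 211 in normal, 524 to 617 in model, and 273, 524 and 283 in the nanozyme libraries. Tnf held rank 20 or 21 among the 31 in the normal libraries, 3 or 4 in the model, and 23, 3 and 12 in the nanozyme libraries.

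Calls in the 4 lists also changed when nanozyme replicate 2 was left out. With all libraries, 0 genes of any list were called against the model. Without replicate 2, 14 of 14 TNF-induced genes were called lower, as were 8 of 23 signalling genes, 5 of 12 release genes and 4 of 8 other superfamily genes, and none was called higher. Over all genes 9.64% were called lower and 12.5% higher in that fit, which was selected on the outcome. The change was then -2.80 for Ccl2 (adjusted p = 0.000386) and -2.18 for Zc3h12a (adjusted p = 0.000227). Ltb and Fasl measured 36.2 to 37.3 and 1.50 to 2.01 FPKM in the nanozyme libraries, and neither passed against the model without replicate 2 (adjusted p = 0.965 and 0.688).

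Leukocyte markers differed among the nanozyme libraries as well. Neutrophil markers summed to 1096, 3264 and 1307 FPKM in nanozyme replicates 1, 2 and 3, and monocyte and macrophage markers to 272, 788 and 254, so replicate 2 was highest in both. B cell markers summed to 214, 59.8 and 177 and natural killer cell markers to 174, 118 and 207, with replicate 2 lowest in both. Alveolar epithelial markers summed to 23460, 16510 and 30280. The part of these cell types in the members' values was not tested.

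The comparison of nanozyme with normal lung asks what difference from normal tissue was left. With all 9 libraries 6 members were called, 5 higher and 1 lower, where 8.39% of all genes were called higher and 5.5% lower, that is 1220 and 800 genes. Over all genes the split was 1325 higher and 557 lower at equal column sums, 1029 and 1148 without the 100 most abundant genes, and 1150 and 1306 with quantile normalization. Tnfrsf1b was higher by 2.29 ± 0.55 (adjusted p = 0.0289), Tnfsf14 by 1.53 ± 0.30 (adjusted p = 0.0133), Tnfrsf26 by 1.34 ± 0.37 (adjusted p = 0.0458) and Tnfrsf1a by 0.58 ± 0.13 (adjusted p = 0.0265). Tnfsf13 was higher by 0.81 ± 0.18 (3.22 to 4.71 against 1.53 to 2.01 FPKM, adjusted p = 0.0235), and Tnfrsf21 was lower, with a change of -0.55 ± 0.09 (adjusted p = 0.00719). Tnf did not pass, at 1.97 (adjusted p = 0.205), nor without nanozyme replicate 2, at 0.65 (adjusted p = 0.279). The call on Tnfrsf26 ended with no filter (adjusted p = 0.0705), with median-of-ratios scaling (0.0532), with quantile normalization (0.0708), with only the 2 groups compared (0.0920), and without any 1 normal or model replicate (0.0615 to 0.141). That on Tnfrsf1b ended with only the 2 groups compared (0.0638) and without any 1 normal replicate (0.0662 to 0.0949), and that on Tnfsf14 without normal replicate 1 or 3 (0.0527 and 0.0556). The Tnfrsf1a call ended when scaled without the 100 most abundant genes (0.0505) and without any 1 normal replicate or nanozyme replicate 1 (0.0532 to 0.108), and the Tnfsf13 call without normal replicate 1 or 3 or nanozyme replicate 2 or 3 (0.0520 to 0.0962). Ranges did not overlap for 15 members that were higher and 2 that were lower, where the shares over all genes were 22.1% and 20.8%.

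In the fit without nanozyme replicate 2, selected as above, 5 members were called against normal lung, 4 higher and 1 lower (9.31% and 4.26% of all genes). Tnfrsf1b was then higher by 1.52 (adjusted p = 0.00127), Tnfsf14 by 1.13 (adjusted p = 0.00128), Tnfrsf26 by 0.83 (adjusted p = 0.00462) and Tnfrsf1a by 0.44 (adjusted p = 0.0342). Tnfrsf21 kept its call, with a change of -0.59 (adjusted p = 0.00835). Tnfsf13 lost its call at 0.70 (adjusted p = 0.0520). In separate fits that kept nanozyme replicate 2 but left out normal replicate 1 or normal replicate 3, the count was 1, and that member was Tnfrsf21. Of the lists, 4 of 8 tested other superfamily genes, 4 of 23 signalling genes, 1 of 12 release genes and 3 of 14 TNF-induced genes were called higher than in normal lung with all libraries. Over all genes that share was 8.39%, and the release genes were near it. Without nanozyme replicate 2 the counts were 4, 3, 1 and 7, against 9.31% of all genes.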

How the data were processed

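Total RNA from whole lung was selected for poly(A) messages, per the labels' protocols, and reads were aligned with HISAT2 to GRCm38, per the submitters' processing notes. The counting tool, annotation and strand setting are not given in the sources used here. The authors deposited FPKM values, with 1 column for each of 9 libraries. Low values showed no whole-read steps (3.60% to 4.19% of ratios in the fullest bin), so depth and counting error are unknown.

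Genes with FPKM of at least 1 in at least 3 of 9 libraries were tested with limma 3.58.1 under R 4.3.3. The model took log2(FPKM + 1) of the 9 libraries jointly, estimated 1 mean per group and used a trended prior variance. Tests were two-sided, with Benjamini-Hochberg adjustment over 14540 genes at 0.05 in each of 3 comparisons. With 3 mice against 3, an exact permutation test of 1 gene cannot go below 0.1 and was not run. On simulated data the fit recovered 56% to 63% of genes changed by 1 on the log2 scale and 90% to 95% of those changed by 2. In that simulation only a small share of genes changed, all above a low mean level. Each gene had the same noise in every library. In the real data many genes were called between model and normal lung, and 1 nanozyme library lay with the model. The recovered shares therefore do not give the power of the tests reported here.

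Members and gene lists were chosen with earlier results of these data known. All 9 values are given for Tnf, its receptors and members called at a change of at least 1, and up to 4 called genes per list are named by adjusted p; other members are described by ranges. Tnfrsf12a, Tnfrsf17, Tnfrsf19 and Tnfrsf21 are given in full in addition, and Tnfsf10 in full for the model only, all chosen after their values were seen. Genes overlap by GENCODE vM21, and promoter sequences are from RefSeq. Python 3.11.15, pandas 2.3.3 and matplotlib 3.10.9 were used. Counts of members were recomputed under 20 alternatives, 9 of them leaving out 1 library each, and single members under 20, or 19 where the stricter filter removed them.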

Additional observations from a re-analysis of the deposited data

How the results depend on the processing

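Over the alternatives, no called member changed its direction in either comparison with normal lung, and 4 members called in the model (Tnfsf10, Tnfrsf4, Tnfrsf18 and Tnfrsf19) lost the call in at least 1 fit. The number of members called between model and normal lung was 10 with a filter at a mean FPKM of 5, where 13 members were tested, and 14 to 17 when 1 library was left out at a time. Between nanozyme and model it was 12, all lower, with array weights, which gave nanozyme replicate 2 a weight of 0.191, and 0 to 13 over the fits that left out 1 library, with 13 without nanozyme replicate 2. Over all genes the weights gave 1662 called higher and 1372 lower, against 0 without them. Weight estimation stopped before convergence and gave normal replicate 3 a weight of 12.3. Between nanozyme and normal lung the count was 3 with the filter at a mean of 5, 15 with array weights (3164 genes higher and 2581 lower over the whole table, against 1220 and 800 without weights), and 1 to 6 when 1 library was left out, with 1 without normal replicate 1 and without normal replicate 3. Of the 6 members called there, 5 lost the call in at least 1 fit: Tnfsf13, Tnfsf14, Tnfrsf1a, Tnfrsf1b and Tnfrsf26. The cause of the differences with weights was not tested. Scaling by median-of-ratios shifted the log2 changes of single genes between model and normal lung by a median of 0.12. Scaling without the 100 most abundant genes shifted them by a median of -0.12.

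Same-numbered libraries did not deviate together in every pair (correlations -0.331 to 0.227), so the numbers were not taken as pairs. With the replicate number as a block, 17, 0 and 6 members were called between model and normal, nanozyme and model, and nanozyme and normal lung, of which 16 and 5 were also called without the block in the comparisons with normal lung. Tnfsf10 (adjusted p = 0.0635) and, in the nanozyme group, Tnfrsf1a (adjusted p = 0.0506) were not called under the block, and Tnfsf13b was (adjusted p = 0.0456 and 0.0482). Not every library correlated best with its own number.

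Depth is unknown, so the counting error of members near 1 FPKM, such as Tnfrsf8, cannot be given, and 3 mice per group limit every test.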
